A study of Mus musculus with 34 samples.

Results

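The comparison set livers of peretinoin-fed Pdgf-c transgenic mice against livers of wild-type mice at week 20, and asked what still differed from wild type while the drug was being eaten. It used 10 of the 34 arrays of the study, 5 peretinoin-fed transgenic and 5 wild-type, taken by their titles. The peretinoin-fed mice carried a Pdgf-c transgene (strain Pdgf-c Tg) and received 0.06% peretinoin in the diet from weaning at week 4. The 5 transgenic livers without the drug, of the same strain and age, were used as a second point of comparison. Wild-type mice were of strain C57/B6 and carried no transgene, and their sample labels name no drug. The study also followed mice to week 48, when liver tumours were examined, whereas week 20 was chosen for fibrosis. The promoter that drives the transgene, the sex of the mice and whether any livers were pooled are not given in the sources used here. No peretinoin-fed wild-type arrays were analysed here, so that the transgene and the diet cannot be told apart in this comparison. Where the peretinoin and basal diets are compared within transgenic mice, the transgene is common to both groups.

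PDGF-C is a secreted growth factor that is activated by cleavage and signals through the receptor tyrosine kinases PDGF receptor alpha and beta. In liver these receptors are carried mainly by stellate cells, the vitamin A storing pericytes that can turn into matrix-producing myofibroblasts. Peretinoin is an acyclic retinoid, a synthetic relative of retinoic acid that acts on nuclear retinoid receptors.

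Each liver was read on 1 Affymetrix array for mouse genes, and signals are intensities on the MAS5 scale. Differences are given as log2 of signal plus 16, peretinoin-fed minus wild type unless stated, with the moderated standard error of limma, and folds are 2 to that power, which understates changes of dim genes. A gene was called at a limma adjusted p under 0.05 (Benjamini-Hochberg, over 13099 genes). Nothing in the labels says more about how separate the 5 livers of a group were, so p-values measure the spread between these samples. In these bulk livers fewer cells of a type and less RNA per cell cannot be told apart.

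Some arrays stood apart. Skeletal muscle transcripts were high in peretinoin-fed replicate 5, with a list mean of 12.6 log2 units, and in replicate 3, with 9.14, against 5.15 to 5.46 in the other peretinoin-fed arrays and 5.21 to 5.80 in wild type. Pancreatic acinar transcripts were high in basal-diet transgenic replicate 5, with a list mean of 11.6 log2 units, against 6.07 to 6.66 in the other basal-diet arrays. That array was kept in the main fits. The ratio of the 3′ to the 5′ probe set of Actb, which grows as RNA breaks down, was 1.70 to 3.31 in peretinoin-fed livers, 1.62 to 1.74 in basal-diet transgenic livers and 1.81 to 2.16 in wild-type livers. For Gapdh the same ratio was 0.766 to 0.939 in peretinoin-fed livers, against 0.746 to 0.848 in wild type. Summed hepatocyte marker signal overlapped between the groups, at 383248 to 530704 in peretinoin-fed and 424507 to 499217 in wild-type livers, and the marker Alb, serum albumin, averaged 33962 ± 5433 in peretinoin-fed and 33972 ± 4436 in wild-type livers (SD, n = 5 each). Y-chromosome genes and Xist did not pass the test between the groups (0 of 4 measured genes by limma, 0 of 4 at an unadjusted p under 0.05).

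Under peretinoin, 2276 of 13099 genes (17.4%) still differed from wild type, 1603 higher (12.2%) and 673 lower (5.14%). Of these, 568 (4.34%) differed by at least 2-fold, 509 higher and 59 lower. Over all 13099 genes, 1483 (11.3%), of which 1258 were called, had signals without overlap: the 5 peretinoin-fed signals lay all above or all below the 5 wild-type signals. With both muscle-bearing arrays left out, 1421 genes were called and 1344 of the 2276 calls held in the same direction. With the Actb ratio as a covariate, 2138 were called, and 1588 of the 2276 calls held in the same direction. A fit of only the groups compared called 1609 genes, and 1480 of the 2276 calls held in the same direction. The split between higher and lower calls depended on how arrays were scaled: 70.4% of calls were higher as reported, 59.4% after quantile normalisation (1221 of 2054) and 46.9% after median centring (968 of 2064), which moved the median of all genes by -0.12 log2 units. Basal-diet transgenic livers differed from the same wild-type arrays in 3102 genes (23.7%), 2071 higher (15.8%) and 1031 lower (7.87%). Peretinoin-fed and basal-diet transgenic livers differed from each other in 378 genes (2.89%), 215 higher (1.64%) and 163 lower (1.24%) under peretinoin.

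To place the week 20 livers on a scale not drawn from them, genes were chosen on week 48 livers. The 814 genes higher and 151 genes lower in basal-diet transgenic than in wild-type livers were combined into a transgene score (mean log2 signal of the higher genes minus that of the lower genes). Of the arrays that chose them, transgenic replicate 4 had list means of 13.6 log2 units for muscle and 11.8 for pancreatic acinar genes. Wild-type replicate 4 had a muscle list mean of 11.6. A choice of genes without these arrays was not tested. The scores were -0.48, -0.45, -0.59, -0.20 and 0.35 in peretinoin-fed livers, 0.58, 0.41, 0.51, 0.07 and 0.21 in basal-diet transgenic livers and -1.70, -1.55, -2.37, -2.32 and -2.31 in wild-type livers. Every peretinoin-fed liver lay above every wild-type liver, and peretinoin-fed replicate 5 lay within the range of the basal diet. That array also had the strongest muscle signal of the scored arrays and an Actb ratio of 1.70, within the basal-diet range, and their part in its score was not tested. On average the peretinoin-fed livers scored -0.275 ± 0.379, the basal-diet transgenic livers 0.356 ± 0.213 and the wild-type livers -2.05 ± 0.388 (SD, n = 5 each). The peretinoin-fed minus wild-type difference of 1.77 was 73.7% of the basal-diet transgenic minus wild-type difference of 2.41, and both share the wild-type arrays. Without peretinoin-fed replicate 5 the difference was 1.62 and the share 67.2%, and without both muscle-bearing peretinoin-fed arrays 1.67 and 69.4%. No p is given for the score.

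**Figure D1:**
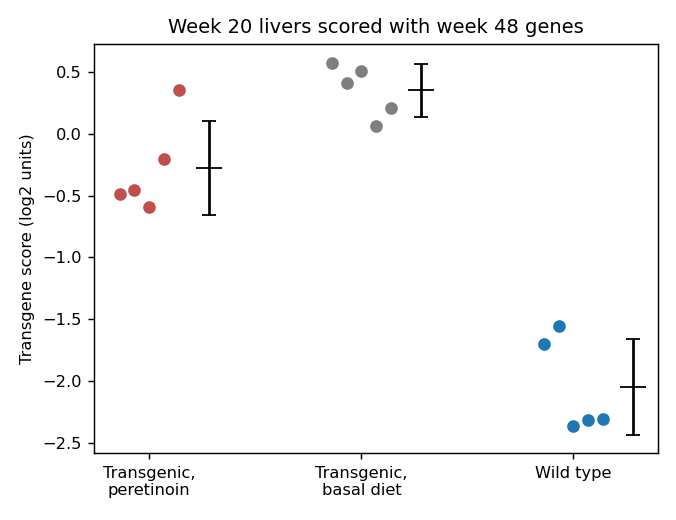
Transgene score of each week 20 liver (points, log2 units), with the mean and SD of the 5 livers of each group beside them. Peretinoin-fed livers average -0.275, between basal-diet transgenic livers at 0.356 and wild-type livers at -2.05.

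Against shares of 12.2% higher and 5.14% lower over all tested genes, 13 of 16 TGF-beta pathway genes, 11 of 14 proteoglycan and elastic fibre genes and 5 of 6 fibrillar collagens were higher, and 6 of 11 genes of resident liver macrophages were lower. Of 15 circadian genes limma called 0, and 1 had an unadjusted p under 0.05.

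**Figure D2:**
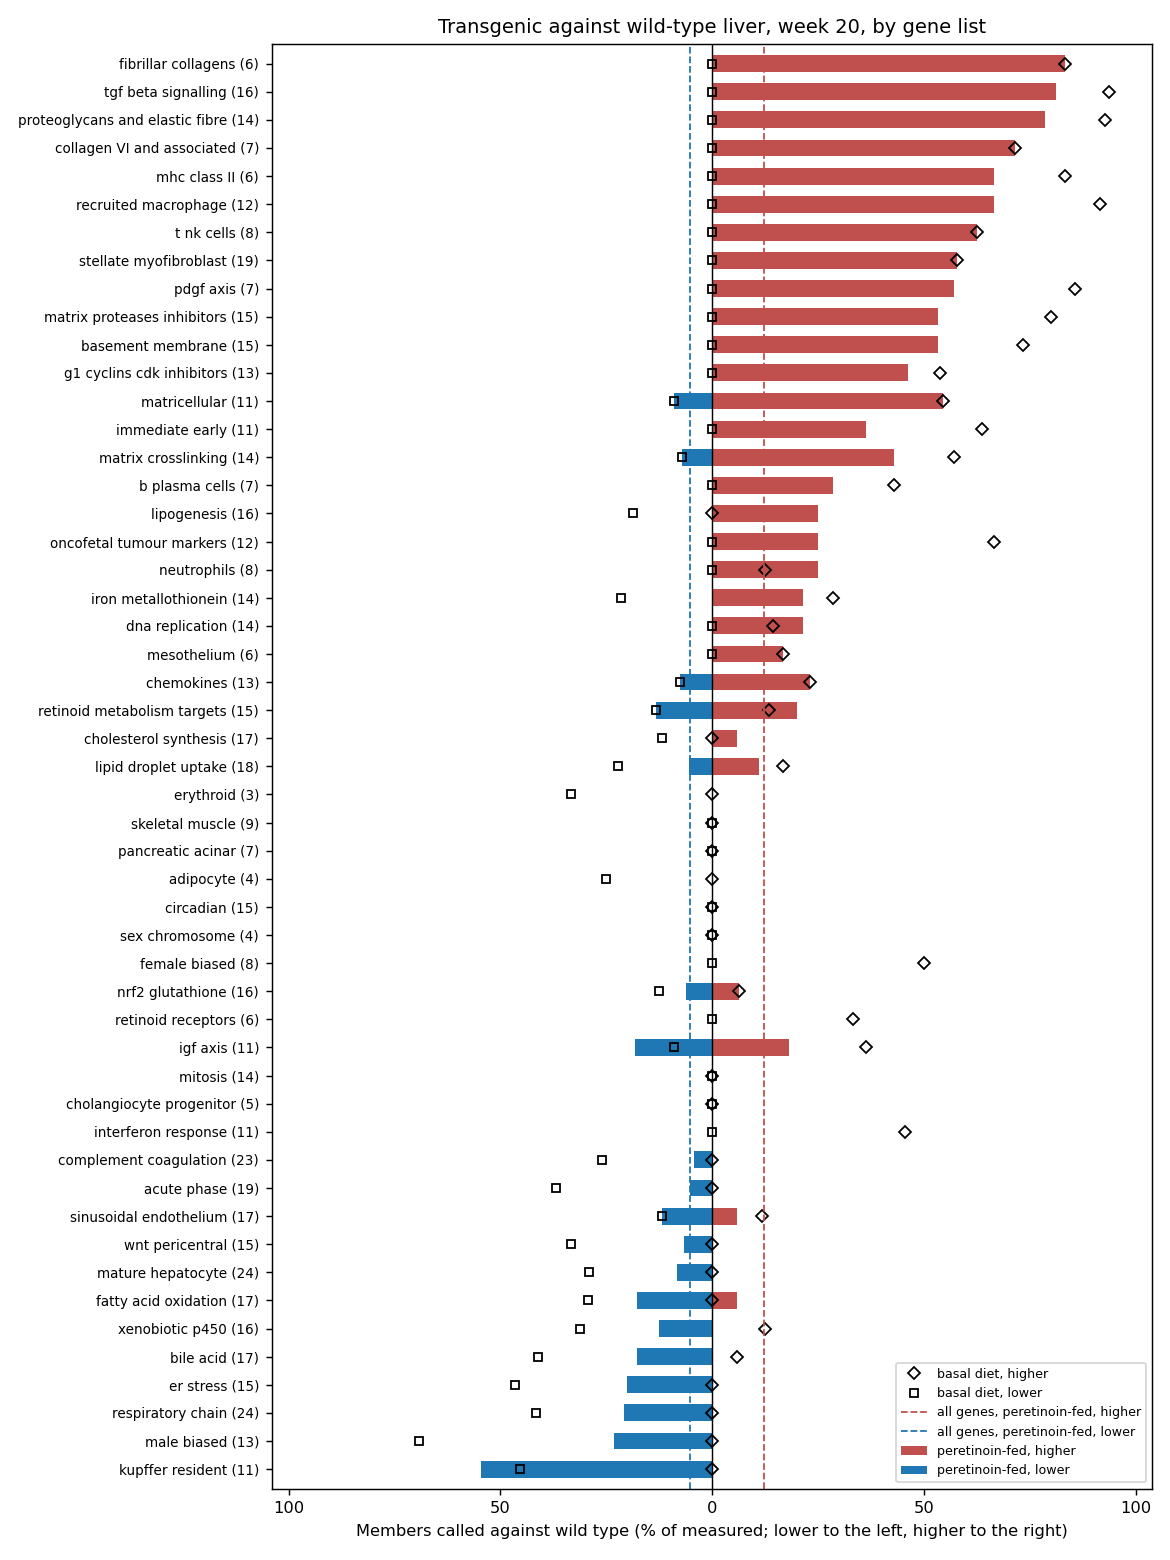
Percent of the measured members of each gene list called higher (right) or lower (left) than wild type at week 20, with the number of measured members after each name. Bars are peretinoin-fed transgenic livers, open symbols basal-diet transgenic livers, and dashed lines the shares over all genes in the peretinoin-fed comparison, 12.2% higher and 5.14% lower. Matrix lists reach far to the right and resident Kupffer genes to the left.

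Ligands and receptors of the PDGF pathway come first. Pdgfc, the gene carried by the transgene, had signals of 548, 353, 744, 380.5 and 347 in peretinoin-fed livers, against 362, 259, 317, 332 and 412 in wild-type livers. The groups overlapped and limma did not call the difference (0.43 ± 0.20, adjusted p = 0.142). With the mean of all Pdgfc probe sets in place of the brightest, the difference was 0.67 at adjusted p = 0.0350. The sources do not say which part of the transcript the transgene carries, so whether this probe set reads the transgene is not known. In basal-diet transgenic livers the signals were 386, 376, 321, 284 and 210, which overlapped wild type, and the basal-diet transgenic minus wild-type difference was -0.10 ± 0.20 (adjusted p = 0.757). The labels of transgenic livers are therefore not checked by this gene. Of the 7 measured genes of the list, 4 rose and 0 fell, with a median of 0.70 against 0.05 over all genes.

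Both receptors were among the strongest rises. Pdgfra, the receptor for PDGF-A and PDGF-C homodimers, had signals of 1199, 1009, 2027, 2468 and 2410.1 in peretinoin-fed livers, against 258, 408, 109, 168 and 131 in wild-type livers. Those ranges did not overlap, and the difference was 3.05 ± 0.29 (limma, adjusted p = 5.39e-09), an 8.28-fold rise. Pdgfrb, the receptor that PDGF-B and PDGF-D bind most strongly, had 1821, 1398, 2725, 2307 and 2316 in peretinoin-fed livers, against 339, 355, 118, 143 and 329.9 in wild type, again without overlap, a rise of 3.06 ± 0.23 (adjusted p = 6.99e-11). Pdgfra was lower than on the basal diet, with a peretinoin-fed minus basal-diet transgenic difference of -1.26 ± 0.29 (adjusted p = 0.0179). It averaged 1823 ± 681 in peretinoin-fed and 4145 ± 540.1 in basal-diet transgenic livers (SD, n = 5 each), and the call ended in 5 of 23 alternative fits. For Pdgfrb that difference was -0.33 ± 0.23 and did not pass (adjusted p = 0.453, 95% interval -0.80 to 0.14). Among the ligands, Pdgfd rose by 0.94 and Pdgfa by 0.70. Pdgfb was not called against wild type (0.05 ± 0.22, adjusted p = 0.917), and it was lower under peretinoin than under the basal diet, with a difference of -0.94 ± 0.22 (adjusted p = 0.0213). Over 23 alternatives that difference between the diets ran from -1.10 to -0.16, and its call ended in 6.

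**Figure D3:**
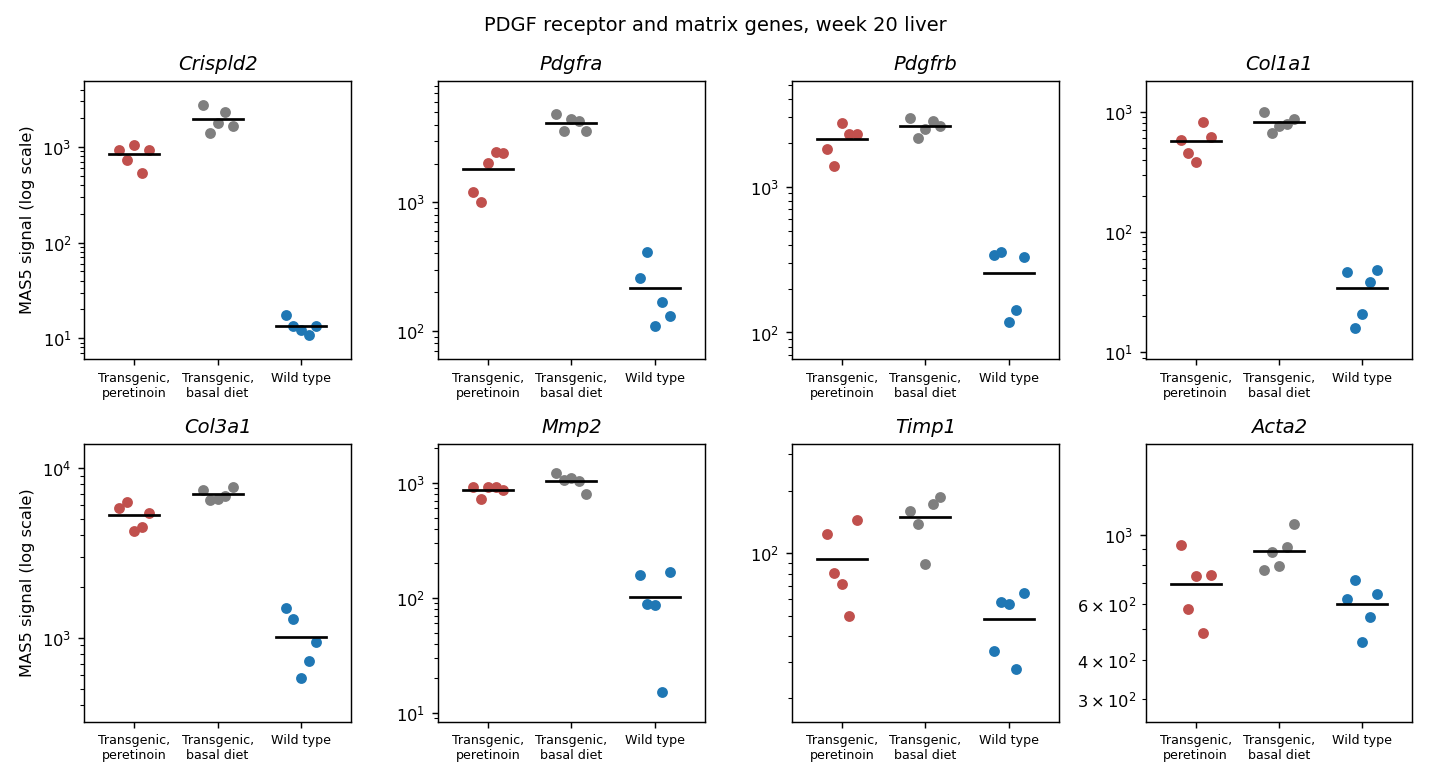
MAS5 signals (log axis) of 8 PDGF receptor and matrix genes in each week 20 liver, points, with the group mean as a line. For 6 of the 8 genes all 5 peretinoin-fed livers lie above all 5 wild-type livers; Timp1 and Acta2 overlap.

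The largest rise of any gene under the naming rule was that of Crispld2, a secreted glycoprotein. Its signals were 933, 729.9, 1060.2, 533 and 929.5 in peretinoin-fed livers, against 17.7, 13.4, 12.1, 10.9 and 13.4 in wild-type livers. All wild-type values lay near the dim end of the array, and the rise was 4.82 ± 0.30, or 28.2-fold (adjusted p = 1.14e-12). In basal-diet transgenic livers Crispld2 averaged 1978 ± 539.8, and the peretinoin-fed livers were lower than these, with a difference of -1.22 ± 0.30 (adjusted p = 0.0259), a call that ended in 8 of 23 alternative fits.

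Promoters of 3 genes that rose and of 1 gene that differed between the diets are printed to show the sequence context of these genes. Each run is the 250 bases before the gene's start, from RefSeq on GRCm38.p6, plus strand. Capitals mark the CCAAT box, the TATAA core of the TATA box and the GGGCGG core of the GC box, each searched on both strands, where overlapping matches share capitals.
Crispld2, chr8:119992188-119992437: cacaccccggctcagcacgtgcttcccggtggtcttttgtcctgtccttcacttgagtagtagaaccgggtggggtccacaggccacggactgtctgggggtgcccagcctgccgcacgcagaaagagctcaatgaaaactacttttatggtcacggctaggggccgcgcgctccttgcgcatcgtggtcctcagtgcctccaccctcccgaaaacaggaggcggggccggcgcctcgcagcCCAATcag
Pdgfra, chr5:75152001-75152250: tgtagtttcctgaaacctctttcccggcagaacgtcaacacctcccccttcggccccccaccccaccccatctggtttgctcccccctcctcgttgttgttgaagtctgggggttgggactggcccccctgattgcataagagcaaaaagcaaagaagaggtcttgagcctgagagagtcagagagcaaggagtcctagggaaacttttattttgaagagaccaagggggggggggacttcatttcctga
Col1a2, chr6:4505368-4505617: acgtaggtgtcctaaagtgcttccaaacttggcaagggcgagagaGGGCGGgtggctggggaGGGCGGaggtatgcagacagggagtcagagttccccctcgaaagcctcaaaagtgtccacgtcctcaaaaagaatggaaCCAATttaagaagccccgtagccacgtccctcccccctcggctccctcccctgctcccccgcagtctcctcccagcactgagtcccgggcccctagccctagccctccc
Insig1, chr5:28071162-28071411: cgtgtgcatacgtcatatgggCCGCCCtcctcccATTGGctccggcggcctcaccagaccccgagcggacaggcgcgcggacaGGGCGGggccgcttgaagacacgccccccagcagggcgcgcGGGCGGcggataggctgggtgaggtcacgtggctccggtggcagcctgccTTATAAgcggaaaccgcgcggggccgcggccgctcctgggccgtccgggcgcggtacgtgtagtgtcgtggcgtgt
CCAAT was found 1 time each in Crispld2, Col1a2 and Insig1, GGGCGG 2 times in Col1a2 and 3 times in Insig1, and TATAA 2 times, overlapping on opposite strands, in Insig1. In the Pdgfra window these letters were not found. Over all 32851 promoters of the same length, 33.8% held CCAAT, 22.8% TATAA and 32.7% GGGCGG, and a match is a description only.

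Fibrillar collagens, the tensile fibres of scar tissue, were higher than wild type. Of the 6 measured, 5 rose and 0 fell under peretinoin, with a median of 1.90. Col1a1, a chain of collagen I, had signals of 583, 449.9, 380, 822 and 612 in peretinoin-fed livers, against 46, 15.8, 20.6, 38.4 and 48.6 in wild type. Col3a1, collagen III, had 5771, 6314, 4251, 4491 and 5427 in peretinoin-fed livers, against 1485, 1283, 576, 728 and 944 in wild-type livers. In neither gene did the groups overlap; Col1a1 rose 11.8-fold (3.56 ± 0.29, limma adjusted p = 3.25e-10) and Col3a1 5.41-fold (adjusted p = 1.98e-08). The Col1a1 rise was 2.31 when all its probe sets were averaged. Col1a2, Col5a1 and Col5a2 rose by 1.90, 1.10 and 1.90, while Col5a3 did not pass (0.16 ± 0.22). Between the diets limma called 0 of the 6 (3 at an unadjusted p under 0.05; in basal-diet transgenic livers Col1a1 averaged 818 ± 122 and Col3a1 6982 ± 541); the peretinoin-fed minus basal difference was -0.55 (95% interval -1.14 to 0.04) for Col1a1 and -0.42 (-0.93 to 0.08) for Col3a1.

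Other matrix lists were also mostly higher. Collagen VI, a microfibril around cells, had all 3 main chains higher: Col6a2 rose by 3.44 ± 0.43, Col6a1 by 2.88 ± 0.30 and Col6a3 by 2.85 ± 0.26, within a list in which 5 of 7 rose. Of 15 basement membrane genes 8 rose and 0 fell (median 0.92), led by the laminin chain Lama2 (2.51), the linker protein nidogen, Nid1 (2.05), and the collagen IV chain Col4a1 (1.99). Proteoglycan and elastic fibre genes rose in 11 of 14 (median 1.60). Bgn, biglycan, had 5915, 7151, 7601, 8682 and 8049.7 in peretinoin-fed livers, against 1465, 1595, 589.5, 1831 and 1435 in wild type, with no overlap and a rise of 2.50 ± 0.24 (adjusted p = 5.13e-09). Lum, the collagen-binding lumican, rose by 2.55, Emilin1 of the elastic fibre surface by 1.78, and Fbln5, which helps assemble elastic fibres, by 2.16. Fbln5 was lower under peretinoin than under the basal diet (-1.003 ± 0.25, adjusted p = 0.0275, ended in 7 of 23 alternatives).

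Matricellular genes, whose products modulate cell contact with matrix, rose in 6 of 11 and fell in 1. Smoc2 rose by 2.66, Svep1 by 3.04 and the thrombospondin Thbs2 by 2.18; the rise of Svep1, a dim gene, was 1.86 at an offset of 64. Postn, periostin, went the other way, with 282, 139.9, 143, 105.3 and 219 in peretinoin-fed livers, against 558, 925, 231, 430.1 and 526 in wild-type livers. Its groups overlapped at 1 wild-type liver, and the difference was -1.45 ± 0.32 (adjusted p = 0.00155). Enzymes that process and crosslink matrix rose in 6 of 14 and fell in 1: the lysyl oxidase relative Loxl1 rose by 3.18 ± 0.39, the lysyl hydroxylase Plod2 by 2.51 (1.51 with an offset of 64) and the procollagen proteinase enhancer Pcolce by 1.87, while the related Pcolce2 fell by 1.22 (-0.81 with an offset of 64).

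Matrix turnover genes were also high, 8 of 15 higher and 0 lower (median 0.97). Mmp2, the gelatinase A that degrades collagen IV, had 926, 724, 926, 921 and 870 in peretinoin-fed livers, against 157, 87.9, 86.4, 15.1 and 168 in wild-type livers. Signals did not overlap, and the rise was 3.13 ± 0.30 (adjusted p = 5.29e-09). The serine protease Htra1 rose by 3.34 ± 0.42, the aggrecanase Adamts5 by 2.63 and Plat, tissue plasminogen activator, by 2.59. Timp1, an inhibitor of matrix metalloproteinases often used to follow fibrosis, had 124, 80.3, 71, 49.7 and 145 in peretinoin-fed livers, against 33.8, 58.3, 57.1, 27.8 and 64.8 in wild type. Here the groups overlapped and the difference was not called (0.74 ± 0.31, adjusted p = 0.0947), although it was called in basal-diet transgenic livers (1.37 ± 0.31, adjusted p = 0.00133); the diets themselves did not pass a test of difference for Timp1 (-0.63 ± 0.31, adjusted p = 0.252).

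TGF-beta, the main fibrogenic cytokine of the liver, is stored in matrix by latent binding proteins. Of 16 genes of this pathway 13 rose and 0 fell, with a median of 0.94. The ligand Tgfb3 rose by 2.54 ± 0.37 (1.53 with an offset of 64), the latent binding proteins Ltbp3 and Ltbp1 by 1.74 and 1.60, and Tgfbi, a matrix protein induced by TGF-beta, by 1.62. Between the diets limma called 0 of the 16, and 4 had an unadjusted p under 0.05. Of 19 markers of stellate cells and myofibroblasts 11 rose and 0 fell, and 7 rose without the muscle-bearing arrays. Cygb, cytoglobin of stellate cells, rose by 2.17 ± 0.21, the secreted Fstl1 by 2.43, the mineral-binding Mgp by 2.74 and Vim, vimentin, by 1.67. Acta2, smooth muscle actin of contractile myofibroblasts, did not pass: it had 930.4, 579, 736, 488 and 746 in peretinoin-fed livers, against 626, 719.5, 456, 546 and 649.6 in wild type, a difference of 0.19 ± 0.32 (adjusted p = 0.729). Mgp differed between the diets by -1.47 ± 0.35 (adjusted p = 0.0208). Other genes with a large rise and no overlap were Itga8, the integrin alpha 8 chain, by 3.52, and Emp1, an epithelial membrane protein, by 3.65, or 1.73 when its probe sets were averaged.

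Genes of resident macrophages were lower than in wild type. Kupffer cells, the macrophages of the liver sinusoids, are known by Clec4f, Timd4 and Cd163. Of 11 measured Kupffer genes, 6 fell and 0 rose (median -1.34), and the 6 that fell did so without overlap. Cd163, a haemoglobin scavenger receptor, had 111, 132, 5.5, 28.2 and 74.1 in peretinoin-fed livers, against 898, 983, 771, 854 and 708 in wild-type livers. Timd4, which binds phosphatidylserine on dying cells, had 41.5, 57, 54.9, 35.8 and 41.4 in peretinoin-fed livers, against 224, 269, 243, 414 and 222 in wild type. Clec4f, a lectin of Kupffer cells, had 596, 709, 248.8, 489.7 and 407 in peretinoin-fed livers, against 2109, 2008, 1884, 3167 and 2133 in wild-type livers. Cd163 had the largest fall of any gene under the naming rule and fell by 3.62 ± 0.43 or was 12.3-fold lower (adjusted p = 3.10e-07). Timd4 fell by 2.20 (adjusted p = 2.85e-04) and Clec4f by 2.22 (adjusted p = 0.0126, and 0.0952 without both muscle-bearing arrays). Cd5l, secreted by macrophages, fell by 2.20 ± 0.51, the folate receptor Folr2 by 1.96 and the complement receptor Vsig4 by 1.34; the Vsig4 call ended in 11 of 23 alternative fits. Between the diets limma called 0 of the 11 Kupffer genes, 1 of them at an unadjusted p under 0.05 (Cd163 -0.09 ± 0.43, Timd4 0.10 ± 0.41). Summed Kupffer marker signal ran from 10115 to 16877 in peretinoin-fed livers and from 20115 to 30468 in wild-type livers.

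**Figure D4:**
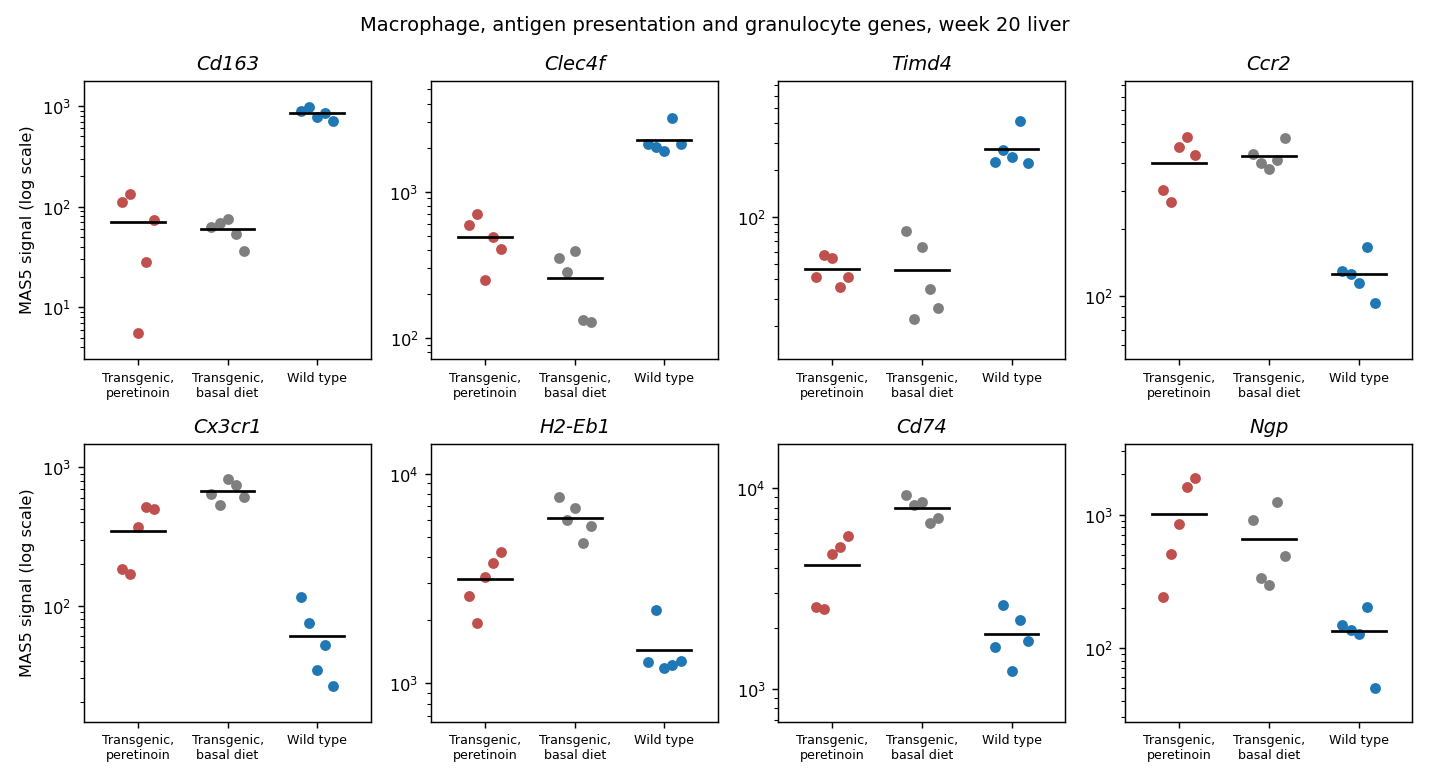
MAS5 signals (log axis) of macrophage, antigen presentation and granulocyte genes in each week 20 liver, points, with group means as lines. Cd163, Clec4f and Timd4 average lower in both transgenic groups than in wild type, and H2-Eb1 and Cd74 average between basal-diet transgenic and wild-type livers under peretinoin.

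Markers of recruited macrophages moved the opposite way, 8 of 12 higher and 0 lower (4 higher without the muscle-bearing arrays). Cx3cr1, the fractalkine receptor, had 184, 169, 369, 513 and 499.5 in peretinoin-fed livers, against 116, 74.4, 34.3, 52.4 and 26.1 in wild type. The 5 peretinoin-fed livers lay above the wild-type ones and the rise was 2.23 ± 0.38 (adjusted p = 9.03e-05). Its ligand Cx3cl1 rose by 1.98 (1.06 with probe sets averaged), the monocyte chemokine receptor Ccr2 by 1.53 (0.88 with probe sets averaged) and the integrin Itgax of dendritic cells and macrophages by 1.19. Among 13 chemokines, 3 were higher and 1 lower. Beside Cx3cl1, Ccl5, which attracts T cells, rose by 1.47, Cxcl12, which retains cells that carry CXCR4, rose by 0.78 (0.52 with probe sets averaged), and Cxcl13, which attracts B cells, fell by 1.23 (-0.71 with the Actb ratio as a covariate and -1.96 with probe sets averaged), with a call that ended in 13 of 23 alternatives. T and NK cell genes rose in 5 of 8 (2 without the muscle-bearing arrays), with the cytotoxic granule protease Gzmb up by 1.92 (1.08 with an offset of 64) and the T cell receptor chain Cd3d by 1.71 (1.0006 with that offset), and in B and plasma cells 2 of 7 rose, Cd79b and Jchain, and 0 without those arrays.

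Several genes of MHC class II, which presents peptides to helper T cells, stood between wild type and the basal diet. H2-Eb1, a class II beta chain, had 2605, 1949.7, 3214, 3766 and 4214 in peretinoin-fed livers, against 1270.4, 2229.6, 1181, 1219.7 and 1283 in wild type, and averaged 6165 ± 1158 in basal-diet transgenic livers. Cd74, the invariant chain that guides class II molecules, had 2543, 2505, 4722, 5112 and 5796 in peretinoin-fed livers, against 1607, 2629, 1231, 2194 and 1735 in wild-type livers, and averaged 7991 ± 1055 on the basal diet. Both overlapped wild type at the low end. H2-Eb1 was 1.12 ± 0.21 above wild type (adjusted p = 2.48e-04) and -0.996 ± 0.21 against the basal diet (adjusted p = 0.00993). For Cd74 the values were 1.09 (adjusted p = 0.00298) and -1.02 (adjusted p = 0.0267). H2-Ab1 was the third gene lower than on the basal diet (-1.06 ± 0.20) and still higher than wild type (0.79 ± 0.20). The calls between the diets ended in 6 of 23 alternatives for Cd74, 2 for H2-Eb1 and 1 for H2-Ab1. Without the muscle-bearing arrays Cd74 was 0.81 above wild type and not called (limma, adjusted p = 0.065). Of the 6 class II genes, 4 rose against wild type (3 without the muscle-bearing arrays), and 3 were lower than on the basal diet, where 1.24% of all genes were. Of 11 interferon response genes limma called 0 against wild type (2 at an unadjusted p under 0.05, and 1 higher with the Actb ratio as a covariate), against 5 of 11 higher in basal-diet transgenic livers, and 1 of 11 lower between the diets.

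Granulocyte genes varied from liver to liver. Ngp, neutrophilic granule protein, had 238, 508, 848, 1601 and 1891 in peretinoin-fed livers, against 147, 136, 126, 202 and 50 in wild-type livers. Camp, the antimicrobial cathelicidin, had 13.3, 127, 229.8, 487 and 499 in peretinoin-fed livers, against 5.8, 10.3, 6.3, 10.9 and 3.2 in wild type. Neither gene overlapped between the groups, yet the peretinoin-fed values spread widely and the rises were 2.55 ± 0.72 and 3.06 ± 0.91 (adjusted p = 0.0132 and 0.0181; Camp 1.90 with an offset of 64). Of 8 measured neutrophil genes these 2 were called, and 0 without the muscle-bearing arrays. Summed neutrophil marker signal ran from 1897 to 10371 in peretinoin-fed and from 823 to 2613 in wild-type livers.

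Genes of the vessel wall were split. Among 17 endothelial genes 1 rose and 2 fell: Cd34, a marker of capillary rather than sinusoidal endothelium, rose by 2.73 ± 0.34, the sinusoidal lectin Clec4g fell by 1.35 and the sinusoidal Fc receptor Fcgr2b by 0.91, a call that ended in 16 of 23 alternatives. Without the muscle-bearing arrays 1 of the 17 was called higher and 0 lower. Among mesothelial markers 1 of 6 rose, Wt1, by 2.07 (1.36 with an offset of 64), and 2 with the Actb ratio as a covariate. Of 5 cholangiocyte and progenitor genes limma called 0 (1 at an unadjusted p under 0.05), and 1 higher and 1 lower with that covariate.

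Growth control genes were partly high. Ccnd1, cyclin D1 that drives entry into the cell cycle, had 1928, 3087, 1082, 3467 and 5241 in peretinoin-fed livers, against 1298, 556, 1571, 1089 and 787 in wild-type livers. Ccnd2, cyclin D2, had 923, 1006, 972, 1536 and 1113 in peretinoin-fed livers, against 378, 339.8, 421, 464 and 467 in wild type. Ccnd1 overlapped and Ccnd2 did not; they rose by 1.37 ± 0.34 (adjusted p = 0.00472) and 1.37 ± 0.18 (adjusted p = 1.01e-06). The cyclin-dependent kinase inhibitors Cdkn2b and Cdkn2c rose too, by 1.46 (0.81 with an offset of 64) and 0.63, so that 6 of 13 genes of this list were higher and 0 lower. Of 14 mitosis genes limma called 0 (1 at an unadjusted p under 0.05), with a median of 0.65, and 3 were higher with the Actb ratio as a covariate. Cdk1, the kinase that starts mitosis, had 240.1, 262, 63.4, 274 and 266 in peretinoin-fed livers, against 266, 209, 93.1, 174 and 111 in wild type, a difference of 0.29 ± 0.45 (adjusted p = 0.702). Of 14 DNA replication genes 3 rose, Mcm2, Cdt1 and Mcm7 (Cdt1 and Mcm7 in calls that ended in 11 and 12 of 23 alternatives), and 0 without the muscle-bearing arrays, whereas 9 were higher with the Actb ratio as a covariate. Immediate early genes rose in 4 of 11, with Klf6 up by 1.70 ± 0.25 and Egr1 by 1.88 ± 0.56.

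Afp, alpha-fetoprotein of the fetal liver and of liver tumours, had 457, 469, 394, 465 and 460.3 in peretinoin-fed livers, against 329, 70, 181, 90.2 and 109 in wild-type livers. The peretinoin-fed livers lay in a narrow band above all wild-type livers, and the rise was 1.62 ± 0.36 or 3.08-fold (adjusted p = 0.0019). In basal-diet transgenic livers Afp averaged 329 ± 148, and the diets did not pass a test of difference (0.54 ± 0.36, adjusted p = 0.426). Of 12 oncofetal and tumour markers 3 rose, Afp, Scd2 (2.08) and Cd24a (1.23), and 5 with the Actb ratio as a covariate. With probe sets averaged, the calls of Scd2 (1.10, adjusted p = 0.153) and Cd24a (0.77, adjusted p = 0.124) ended. In basal-diet transgenic livers 8 of the 12 were higher than in the same wild-type arrays, and limma called 0 of 12 between the diets (1 at an unadjusted p under 0.05). In the insulin-like growth factor axis 2 of 11 rose and 2 fell (1 and 1 without the muscle-bearing arrays). Igfbp7 rose by 1.71 ± 0.17 (0.77 with probe sets averaged) and Igfbp1 by 1.44 (0.82 without wild-type replicate 3), a call that ended in 6 of 23 alternatives. Igfals, the acid-labile subunit that keeps IGF in the blood, fell by 0.67 ± 0.14, and Igf1 itself fell by 0.32 ± 0.10 (-0.21 and not called after quantile normalisation).

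**Figure D5:**
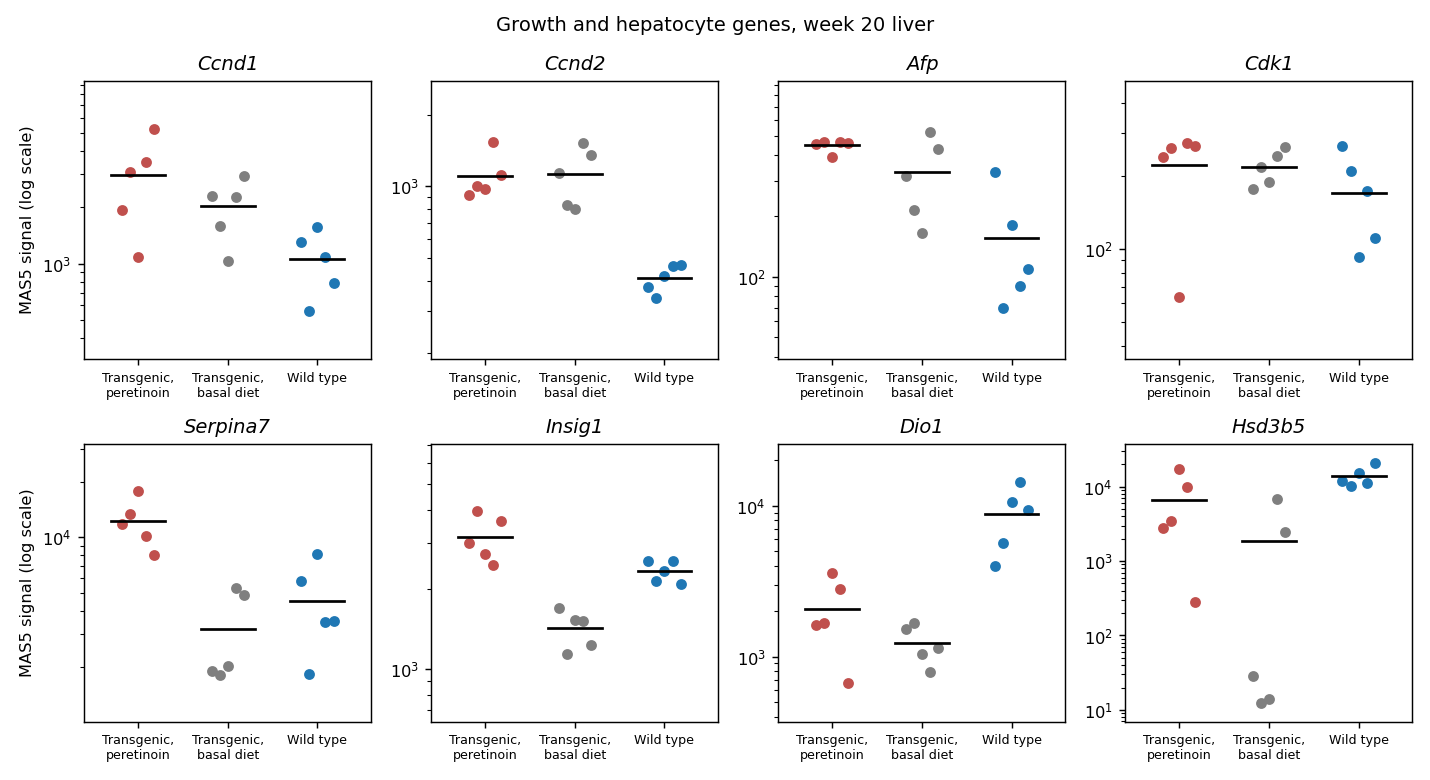
MAS5 signals (log axis) of growth and hepatocyte genes in each week 20 liver, points, with group means as lines. Ccnd2 and Afp of all peretinoin-fed livers lie above wild type, Dio1 lies below it, and Serpina7 and Insig1 lie above the basal-diet transgenic livers.

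Counts of lower hepatocyte genes depended on the fit. Of 24 mature hepatocyte genes 2 fell and 0 rose under peretinoin, where 5.14% of all genes fell, with a median of -0.05, against 7 of 24 lower in basal-diet transgenic livers. The falls were those of the urea cycle genes Otc and Asl (-0.29 and -0.51). In this list 0 were called without the muscle-bearing arrays or after quantile normalisation, and 3 with the Actb ratio as a covariate. Between the diets 1 of the 24 was called higher and 1 lower under peretinoin. The lower one was Asl, at -0.96 to -0.63 over 23 alternatives, 8 of which ended the call. Of 19 acute phase genes 1 fell, Saa4 (-1.06 ± 0.19), against 7 in basal-diet transgenic livers, and of 23 complement and coagulation genes 1 fell, Masp2 (-0.64, but -0.26 at adjusted p = 0.132 with probe sets averaged), against 6. With the Actb ratio as a covariate 4 of the acute phase genes and 10 of the complement and coagulation genes were lower, and after median centring 2 of each. Bile acid genes fell in 3 of 17 (1 without the muscle-bearing arrays, 5 with the Actb ratio as a covariate), against 7: Baat, which conjugates bile acids, fell by 0.61 ± 0.13, Cyp27a1 by 0.53 and Cyp7b1 by 1.20, the last call ending in 15 of 23 alternatives. Cyp7a1, the rate-limiting enzyme of bile acid synthesis, did not pass (-0.26 ± 0.35, adjusted p = 0.667). These counts share the wild-type arrays, and 1, 1 and 0 genes of the acute phase, complement and bile acid lists were called between the diets.

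The genes with the largest falls included a hepatocyte enzyme. Dio1, the deiodinase that activates thyroid hormone, had 1613, 1659.5, 3596, 2801 and 666 in peretinoin-fed livers, against 3961, 5686, 10647, 14283 and 9318 in wild type. No peretinoin-fed liver reached the wild-type range, and it fell by 2.15 ± 0.47 (adjusted p = 0.00162). Further large falls without overlap were those of the collectin Colec10 by 2.98 ± 0.45, of Tnfrsf11b, osteoprotegerin, by 2.55 ± 0.36 (-1.63 with an offset of 64), of Gbp2b, a guanylate-binding protein, by 2.20, of Cfp, the complement activator properdin, by 2.15 (-0.92 with probe sets averaged), and of Dct, dopachrome tautomerase, by 1.99. In the detoxification list Gsta3 fell by 0.49 and Gstm3 rose by 1.46. Of 16 cytochrome P450 and regulator genes 2 fell, Nr1i2 and Cyp2d9 (-0.54 and -0.59), and 0 without the muscle-bearing arrays. Nr1i2 was also called lower than on the basal diet (-0.70 to -0.50 over 23 alternatives, 13 of which ended the call). Respiratory chain genes fell in 5 of 24 (Uqcrfs1 by 0.38 and Sdhd by 0.33), in 1 without the muscle-bearing arrays and in 8 after median centring, as with the Actb ratio as a covariate. Endoplasmic reticulum stress genes fell in 3 of 15, Manf (-0.89), Herpud1 (-0.79) and Creld2 (-1.09), and in 6 after median centring.

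Hsd3b5, a steroid dehydrogenase of male mouse liver, had 2809, 3474, 17097, 9839 and 284 in peretinoin-fed livers, 28.8, 12.5, 14, 6824 and 2441 in basal-diet transgenic livers and 12010.3, 10139.8, 15184, 11209.8 and 20919 in wild-type livers. Of the peretinoin-fed livers 1 lay within the wild-type range, and replicate 5 lay far below it, and limma called neither the difference from wild type (-1.95 ± 1.16, adjusted p = 0.261) nor that from the basal diet (3.91 ± 1.16, adjusted p = 0.0562). With the Actb ratio as a covariate the difference from wild type was -3.65 and was called (limma, adjusted p = 0.0485), and that from the basal diet was called in 6 of 23 alternatives. Of 13 male-biased genes 3 fell, Ugt2b1, Cyp2d9 and Cyp7b1, and 0 without the muscle-bearing arrays, and of 8 female-biased genes limma called 0 (1 at an unadjusted p under 0.05, and 1 higher with the Actb ratio as a covariate). In basal-diet transgenic livers 9 male-biased genes were lower and 4 female-biased genes higher than in the same wild-type arrays. These livers were split. The male-biased list mean was 9.92 to 10.5 log2 units in basal-diet replicates 1 to 3 and 12.3 and 12.1 in replicates 4 and 5. In wild type it was 12.6 to 13.1. The female-biased mean was 9.41 to 9.69 in basal-diet replicates 1 to 3, 8.14 and 8.03 in replicates 4 and 5, and 7.40 to 8.05 in wild type. Between the diets 1 of 13 male-biased genes was called higher and 1 of 8 female-biased genes lower.

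Lipid genes were split. Of 16 lipogenic genes 4 rose and 0 fell (median 0.36): Acaca, which makes malonyl-CoA, by 0.99 ± 0.21 (0.34 at adjusted p = 0.296 with probe sets averaged), its isoform Acacb by 1.496 (0.86 at adjusted p = 0.104 without wild-type replicate 2), the elongase Elovl5 by 0.53 and the desaturase Fads1 by 0.48. The Acacb call ended in 7 of 23 alternatives. In this list 2 genes were called after median centring and 1 with the Actb ratio as a covariate. In basal-diet transgenic livers 0 of the 16 were higher than in the same wild-type arrays and 3 were lower (median -0.28). Between the diets 3 of the 16 were called higher under peretinoin, where 1.64% of all genes were, and 0 lower. The median of that difference was 0.66, and 12 of the 16 had an unadjusted p under 0.05 (limma). Lpl, lipoprotein lipase, had 8897, 12039, 11411, 7666 and 12229 in peretinoin-fed livers, against 4499.9, 2031, 1022, 857 and 2311 in wild-type livers. Its groups did not overlap, with a rise of 2.51 ± 0.34 (adjusted p = 2.31e-06); the lipid droplet coat protein Plin3 rose by 0.68 ± 0.12 and Fitm2 fell by 0.50. Of 17 fatty acid oxidation genes 3 fell and 1 rose, against 1 lower and 0 higher without the muscle-bearing arrays and 7 lower after median centring. Slc25a20, which carries acylcarnitines into mitochondria, fell by 0.63 ± 0.18 (-0.96 with the Actb ratio as a covariate) and Acadm by 0.36 (-0.23 and not called after quantile normalisation), and Pdk4 rose by 1.43 with a call that ended in 7 of 23 alternatives.

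Retinoid genes were checked because the drug is a retinoid. Of the 6 retinoid receptor genes limma called 0 against wild type and 0 between the diets (3 and 1 at an unadjusted p under 0.05). With the Actb ratio as a covariate 1 was called higher and 1 lower than wild type. Rarb, which retinoic acid induces in many cells, was 0.54 ± 0.23 (adjusted p = 0.0961). It was called in 2 of 23 alternatives, at 0.97 (limma, adjusted p = 0.00347) with that covariate and at 0.68 (adjusted p = 0.0442) without wild-type replicate 1. Cyp26a1, the retinoic acid hydroxylase induced by its substrate, had 3573, 2453, 1621, 2027 and 2599 in peretinoin-fed livers, against 3896, 1086, 1559.9, 2631 and 2229.5 in wild-type livers. The groups overlapped over most of their range (0.19 ± 0.32, adjusted p = 0.734), and between the diets the difference was -0.12 ± 0.32. Tgm2, tissue transglutaminase, a crosslinking enzyme that retinoic acid induces, had 8610.4, 6709.6, 7806, 7146 and 6465 in peretinoin-fed livers, 3860.2, 4051, 3029, 5372 and 5936 in basal-diet transgenic livers and 4846, 2663, 4808, 3744 and 5179 in wild type. The peretinoin-fed livers lay above both other groups, by 0.82 ± 0.19 against wild type (limma, adjusted p = 0.00232) and 0.75 ± 0.19 against the basal diet (adjusted p = 0.026). Over 23 alternatives the difference between the diets ran from 0.37 to 0.87, and its call ended in 8. Basal-diet transgenic livers were not called against wild type (0.07 ± 0.19). Of 15 genes of retinoid metabolism and response 3 rose, Tgm2, Lrat (0.83) and Hic1 (0.57), and 2 fell, Rdh10 (-0.37, and -0.22, not called, with probe sets averaged) and Aldh1a1 (-0.39); without the muscle-bearing arrays 2 were higher and 1 lower.

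The remaining lists held few calls. Of 17 cholesterol synthesis genes 1 rose against wild type, Insig1, while 3 were higher than on the basal diet. Of 15 genes of the Wnt-dependent pericentral zone 1 fell, Cyp27a1. Of 14 iron and metallothionein genes 3 rose: Smad7, an inhibitor of TGF-beta and BMP signals, by 0.89 ± 0.19, Id1, a target of BMP signals, by 0.82, and Hjv, hemojuvelin, by 0.41. The Id1 and Hjv calls ended in 10 and 12 of 23 alternative fits. Of 9 skeletal muscle, 7 pancreatic acinar, 4 adipocyte and 3 erythroid genes limma called 0 in each list, and 0 in each had an unadjusted p under 0.05.

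The count of 378 genes that differed between the diets was unstable. It was 0 with the Actb ratio as a covariate (949 genes at an unadjusted p under 0.05), 51 without peretinoin-fed replicate 2, 879 without peretinoin-fed replicate 5 and 484 without both muscle-bearing arrays. Without basal-diet transgenic replicate 5, the array with pancreatic transcripts, it was 474. The Actb ratio of 4 of the 5 peretinoin-fed arrays was above that of every basal-diet transgenic array, and its part in these differences beyond that fit was not tested. Serpina7, thyroxine-binding globulin, had 11853, 13316, 17821, 10174 and 7992 in peretinoin-fed livers, 1888, 1814, 2005, 5294 and 4891 in basal-diet transgenic livers and 5785, 1822, 8089.8, 3491 and 3512 in wild-type livers. Every peretinoin-fed liver lay above every basal-diet liver, by 2.06 ± 0.31 (adjusted p = 9.30e-04), and the difference from wild type, with overlap at 1 wild-type liver, was 1.55 ± 0.31 (adjusted p = 5.79e-04). Insig1, a sterol sensor that holds back SREBP activation and is itself an SREBP target, had 2986, 3949, 2732, 2478 and 3622 in peretinoin-fed livers, 1698, 1137, 1527, 1523 and 1231 in basal-diet transgenic livers and 2551, 2159, 2338, 2567 and 2092 in wild type. Peretinoin-fed and basal-diet values did not overlap (1.13 ± 0.14, adjusted p = 6.57e-05), whereas the call against wild type, 0.41 ± 0.14, ended in 14 of 23 alternative fits. Other rises under peretinoin relative to the basal diet were those of the antisense transcript Hectd2os by 2.41, the fat storage gene Fitm1 by 1.31, Derl1 of endoplasmic reticulum protein degradation by 1.22 and the antisense transcript Rab26os by 1.15. In that order the calls ended in 1 of 23, 7 of 23, 2 of 23 and 7 of 22 alternatives. Against wild type none of these 4 genes was called by limma (log2 differences of -0.66, -0.50, 0.26 and 0.50). The 5 falls named relative to the basal diet were those of Lrtm2 by 2.15, the oxysterol hydroxylase Cyp39a1 by 1.76, Thsd7a by 1.72, the matrix protein Spon1 by 1.61 and the serine protease Htra3 by 1.57. In that order the calls ended in 2 of 23, 1 of 23, 2 of 22, 4 of 22 and 12 of 23 alternatives. Against wild type Cyp39a1 was not called (0.14 ± 0.35). Lrtm2, Thsd7a, Spon1 and Htra3 were called above wild type, by 1.59, 1.08, 1.92 and 1.92. Thsd7a was dim, its call against wild type ended in 8 of 22 alternatives (0.78 at adjusted p = 0.212 without the muscle-bearing arrays), and its value ran from 0.58 to 1.69 with the offset. With probe sets averaged Spon1 was 1.0047 and Htra3 0.84 above wild type, both still called, and with an offset of 64 they were 1.11 and 1.26.

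The change from wild type was also compared between ages, as the week 48 difference (5 peretinoin-fed transgenic and 4 wild-type livers) minus the week 20 difference. Limma called 90 of 13099 genes (0.687%), 27 higher and 63 lower. That count ran from 11 to 230 as single arrays were left out and was 879 after median centring. Muscle transcripts were also high at week 48, in peretinoin-fed replicate 1 (list mean of 13.4 log2 units) and wild-type replicate 4 (11.6). Both arrays were kept in this comparison. Abi3bp, a matrix-associated gene, averaged 71.5 ± 43.1 in peretinoin-fed and 233 ± 36.7 in wild-type livers at week 48 (SD, n = 5 and 4), and 478 ± 88.4 in peretinoin-fed and 240.2 ± 51.8 in wild-type livers at week 20 (n = 5 each). It was above wild type at week 20 and below it at week 48, and the difference of differences was -2.59 ± 0.37 (adjusted p = 7.34e-04). Adamtsl2 and Ltbp3, both tied to microfibrils, and Thbs2 stood less far above wild type at week 48, with differences of -1.95 ± 0.36, -1.31 ± 0.24 and -1.57 ± 0.36. Cdkn2c stood further above it, by 1.46 ± 0.24 (adjusted p = 0.00404), and averaged 1020.2 ± 236 in peretinoin-fed and 227 ± 58.4 in wild-type livers at week 48. Rnf130 was 0.68 ± 0.12 (adjusted p = 0.00754), which turned to -0.20 when its probe sets were averaged. For Col1a1 and Pdgfra the difference between ages did not pass (-1.04 ± 0.42 and -1.29 ± 0.42, adjusted p = 0.248 and 0.148).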

How the data were processed

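Total RNA of liver was extracted, labelled as biotinylated cRNA and hybridised to 1-colour arrays, per the labels' protocols. The deposited table holds the authors' MAS5 signals, which are linear intensity values scaled to the same trimmed mean on each array. MAS5 is named per the submitters' processing notes, with no version. The number of arrays, not read depth, limits precision.

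Probe sets with 1 gene symbol in the platform annotation (34945 of 45101, with 932 of several symbols, 9160 of none and 64 controls) were used. The brightest 60% by their average across the 34 arrays were kept, and each gene took its brightest probe set, giving 13099 genes. The deposited signals were put on a log2 scale after adding 16, and limma 3.58.1 in R 4.3.3 (lmFit, eBayes with an intensity trend) was fitted on all 7 groups, which share 1 estimate of the spread. Benjamini-Hochberg adjustment covered all genes, with a threshold of 0.05, and the fit was tested on simulated data. The 4 contrasts were peretinoin-fed transgenic against wild type, peretinoin against basal diet, basal-diet transgenic against wild type, and the first one at week 48 minus week 20. Promoters are RefSeq sequences on GRCm38.p6.

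Named genes were a panel, the 10 largest rises and 10 largest falls against wild type and 5 each against the basal diet among calls without overlap, members of each of 51 lists by smallest p (2 to 4 a list), with members that show how a list splits, and the 5 smallest p of the age difference. The age difference of Thbs2, a gene named from its list, and further members outside this rule were chosen after their values were seen. The members and lists were chosen with earlier results of these data known. Alternatives were other offsets, filters, scalings, probe set summaries, fits and left-out arrays. Leaving out the muscle-bearing arrays, leaving single arrays out of the score, and the Actb ratio as a covariate were chosen after seeing the data. 0 sample columns were left unused.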

Additional observations from a re-analysis of the deposited data

Results flagged for a closer look

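Single livers lay far from the other 4 of their group in 24 of 304 sets of 5 signals examined, where chance gives about 1 in 20. Each is given with the side on which it lay and its signal. In peretinoin-fed replicate 1 the far signals were those of Col5a3 (high, 776). In peretinoin-fed replicate 2 the far signals were those of Egr1 (high, 9197), Igf1 (high, 19664) and Mmp2 (low, 724). In peretinoin-fed replicate 3 the far signals were those of Afp (low, 394), Cdk1 (low, 63.4) and Creld2 (high, 3407). In peretinoin-fed replicate 4 the far signals were those of Acacb (high, 1628), Cyp7a1 (high, 9085), Igfbp7 (high, 13689.8) and Thsd7a (low, 9.1). In peretinoin-fed replicate 5 the far signals were those of Abi3bp (high, 629) and Tnfrsf11b (high, 38). In wild-type replicate 1 the far signals were those of Cyp27a1 (low, 11886). In wild-type replicate 2 the far signals were those of H2-Eb1 (high, 2229.6). In wild-type replicate 3 the far signals were those of Acadm (low, 12049), Cd3d (high, 75.4), Colec10 (low, 609) and Lrat (low, 319). In wild-type replicate 4 the far signals were those of Clec4f (high, 3167), Col5a3 (low, 248.8), Rnf130 (high, 5381) and Timd4 (high, 414). In wild-type replicate 5 the far signals were those of Thsd7a (low, 1.7).

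For 6 named genes the change from wild type differed between week 48 and week 20 by limma's test of the difference: Abi3bp (-2.59), Adamtsl2 (-1.95), Thbs2 (-1.57), Ltbp3 (-1.31), Cdkn2c (1.46) and Rnf130 (0.68), in log2 units as week 48 minus week 20. All but Thbs2 were named because they had the 5 smallest p of this same test, so that they pass is no separate result. Over all genes 90 of 13099 (0.687%) were called. With only the groups compared, 3 of those 5 lost the call.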

How the results depend on the processing

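Of the named genes called against wild type, 83 kept their call in all alternative fits and 51 lost it in at least 1; all 27 named calls between the diets ended in at least 1. The count against wild type was 1609 with only the groups compared and 1421 without both muscle-bearing arrays. It was 1642 to 2304 as single arrays were left out (lowest without wild-type replicate 4). The count between the diets was 163 after median centring, 229 with only the groups compared, 1516 with array quality weights, 0 with the Actb ratio as a covariate (limma, 949 at an unadjusted p under 0.05) and 51 to 879 with single arrays left out. The age difference gave 879 genes after median centring, 36 without a filter, 160 with probe sets averaged, 3 with only the groups compared, 22 without the muscle-bearing arrays and 11 to 230 with single arrays left out (without week 48 wild-type replicate 3 and week 48 peretinoin-fed replicate 1). For Rnf130 it turned to -0.202 with probe sets averaged. The transgene score difference was 1.29 with genes of at least 1.5-fold and 1.62 to 1.90 with single arrays left out. The share of higher calls in basal-diet transgenic against wild-type livers was 54.6% after quantile normalisation and 46.7% after median centring. The causes of these shifts were not tested beyond what each alternative changes.

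Same-numbered arrays of the groups examined showed little shared deviation (r from -0.157 to 0.147). Basal-diet transgenic and wild-type arrays were not compared in this way. Such correlations cannot exclude shared handling, so whether the numbers pair arrays is not known. A replicate block gave 2400 calls against wild type, 426 between the diets, 3228 for the basal diet against wild type and 89 for the age difference.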
